A study of Mus musculus with 10 samples.

Results

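The annotated microRNA loci are the 48 genes, of 15899 in the deposited matrix, whose biotype entry reads miRNA, and all 48 were kept. They were measured by RIP-seq, the sequencing of RNA recovered by immunoprecipitation, in neurosphere cultures of adult neural stem cells from the brain subependymal zone of 10 weeks old mice. The FLAG cultures (Mex3aFLAG/FLAG) carry a knock-in that fuses a FLAG peptide to the C-terminal end of MEX3A, an RNA-binding protein of the KH-domain family, and the WT cultures (Mex3a+/+) carry no tag, so that anti-FLAG pulldown from them measures nonspecific binding. All cultures grew with EGF and FGF, and the antibody was the same in all groups. Each genotype gave 2 libraries from cells crosslinked with formaldehyde and 3 from native cells, which were not crosslinked. Lysates were sonicated in both protocols, the RNA purification was modified to keep small RNA, and the libraries were primed with random hexamers. The methods call the replicates biological, without naming animals, and say that both protocols were run in parallel. Crosslinked and native libraries may therefore share cultures, which no label settles. Fits that hold both protocols, without a replicate block, take their libraries as independent, so their p-values measure the spread between libraries. Within a protocol p-values measure the spread between these cultures only. The values are log2 values per gene as deposited. They carry no counts, so neither the depth of each library nor the counting error is known, and the number of libraries limits the precision. In RNA pulled down from a whole culture, more cells that hold an RNA and more of it per cell cannot be told apart.

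MicroRNAs are short RNAs that guide Argonaute proteins to complementary sites in messenger RNAs. They are cut from longer primary transcripts, first in the nucleus by DROSHA with DGCR8, which releases a hairpin, and then in the cytoplasm by DICER1, and many of their genes lie in introns or exons of other genes. In the adult neurogenic lineage miR-9 is among the best known of them, and it is encoded at several loci. A value given to a microRNA gene in such a library counts every read that fell on the annotated locus, so a mature microRNA, its hairpin and a transcript that runs through the locus cannot be told apart here.

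RefSeq (GRCm38.p6) held mature sequences for 17 of the 48 loci, 24 sequences of 19 to 26 bases. Their 24 seeds (bases 2 to 8, counted from the 5′ end and written in capitals) were all different, so none of these 17 loci shares a seed with another. The seeds of the other 31 loci were not analysed here. The sequences of the loci on which the comparisons turn are printed here, beginning with the pair that lies on opposite strands of 1 place on chromosome 3, Mir9-1 and Gm25641.
mmu-miR-9-5p (Mir9-1): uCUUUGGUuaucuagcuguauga
mmu-miR-9-3p (Mir9-1): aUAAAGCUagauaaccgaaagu
mmu-miR-9b-5p (Gm25641): uUCGGUUAucuagcuuuauga
mmu-miR-9b-3p (Gm25641): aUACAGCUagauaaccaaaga
mmu-miR-1291 (Mir1291): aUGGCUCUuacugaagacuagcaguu
mmu-miR-3069-5p (Mir3069): uUGGCAGUcaagauauuguuuagc
mmu-miR-3069-3p (Mir3069): uUGGACACuaaguacugccaca
mmu-miR-6418-5p (Mir6418): uCAGGGGAagggaagagaugc
mmu-miR-6418-3p (Mir6418): aCUGCAACcuccuuucuccagg
mmu-miR-5114 (Mir5114): aCUGGAGAcggaagcugcaaga
mmu-miR-6935-3p (Mir6935): uGUUCUUUgucuuuccacag
mmu-miR-5121 (Mir5121): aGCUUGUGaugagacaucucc
mmu-miR-6236 (Mir6236): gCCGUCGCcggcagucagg

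The 5p arms of Mir9-1 and Gm25641 matched at 19 bases and their 3p arms at 17 when aligned without gaps, although their seeds differ. The loci of predicted microRNAs without a RefSeq entry are in part copies of each other. The 10 loci that lie opposite histone H2A genes shared an unbroken stretch of 41 bases, of which the first 30 are printed from Gm44390 (GRCm38, chr13:22035256-22035285, plus strand). Gm23935 and Gm24270 have the same 57 bases on chromosomes 16 and 9, of which the first 30 are printed from Gm23935 (chr16:11144125-11144154, plus strand). AL626808.1 lies within a 5S ribosomal RNA gene, and its first 30 bases are printed (chr4:149817764-149817793, plus strand). No base is in capitals in these stretches, since none of them holds a RefSeq seed.
H2A loci, shared stretch: gcccagcagcttgttgagctcctcgtcgtt
Gm23935 and Gm24270: cgtcgggaccggggtccggtgcggagagcc
AL626808.1: tctcgtctgatctcggaagctaagcagggt

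All 48 loci were found in GENCODE M21 on GRCm38 with the start and end of the matrix (coordinates here are all of that build), among 2207 genes annotated there as microRNAs. They were 57 to 145 bases long, on 16 chromosomes. Almost none of them stands alone. 13 lay on the same strand in a small structured RNA gene (a small nucleolar, small Cajal body, 7SL or 5S ribosomal RNA), 15 in an exon on the same strand, 10 opposite an exon of a histone H2A gene, 3 opposite an exon of another gene and 6 in an intron. Only Mir6236 overlapped no other gene. For 28 loci a gene of the matrix spanned the locus on the same strand, and for 47 a gene of the matrix overlapped it on either strand. 20 loci had more than 1 copy in the genome at 95% identity or more over at least 95% of their length, from 15 to 21 copies for the H2A loci and 58 for AL626808.1. How reads that fit several places or several genes were counted, and with which strand setting, is not given in the sources used here.

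The loci in small structured RNA genes carried nearly the values of those genes. AL626808.1 equalled the 5S ribosomal RNA gene n-R5s193 in all 10 libraries. Mir1949 differed by at most 0.015 from the small nucleolar RNA gene of the same symbol, Mir6516 by at most 0.024 from the small Cajal body RNA Gm26083, and AC121821.1 by at most 0.062 from Snora74a, all on the log2 scale. Of the 13 loci, 8 stayed within 0.2 of the small RNA in every library, and Pearson's r with it over the 10 libraries ran from 0.867 (Mir5121 and Snord33) to 1.00, with a median of 1.00. The largest gaps in level were those of AC157822.1, up to 4.21 below the 7SL gene Rn7s2 that also holds AC157822.2, Mir3069, up to 2.73 below Scarna13, and Mir5121. Mir5121, of whose 74 bases 30 lie in Snord33, was above Snord33 in 9 of 10 libraries, by up to 2.41.

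The H2A loci followed the histone genes on the other strand with r from 0.875 to 1.00 and a median of 0.985, but only 1 of the 10, Gm44367, stayed within 0.2 of its gene in every library (at most 0.135 from Hist1h2ai). Gm44335 was up to 4.77 from H2afx, Gm44313 up to 2.92 from Hist3h2a and Gm44350 up to 1.84 from Hist1h2ac. Loci in exons on the same strand followed their genes less closely, with r from -0.626 (AL593843.1 and Kansl1) to 0.993 (Gm22133 and Ftl1) and a median of 0.72, and none of the 15 stayed within 0.2 of its gene. Loci opposite other exons had r from 0.613 to 0.871 (median 0.807), and loci in introns 0.337 to 0.971 (median 0.586). Over the 47 loci with an overlapping gene the median r was 0.937, and 25 had an r over 0.9. These correlations describe 10 libraries shared by all loci and in part the same reads counted at the locus and at the gene, and they have no test. Mir9-1 and Gm25641, 89 bases of which coincide on opposite strands, differed by at most 0.146 in any library, while the identical loci Gm23935 and Gm24270 differed by 4.57 to 8.53.

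**Figure D1:**
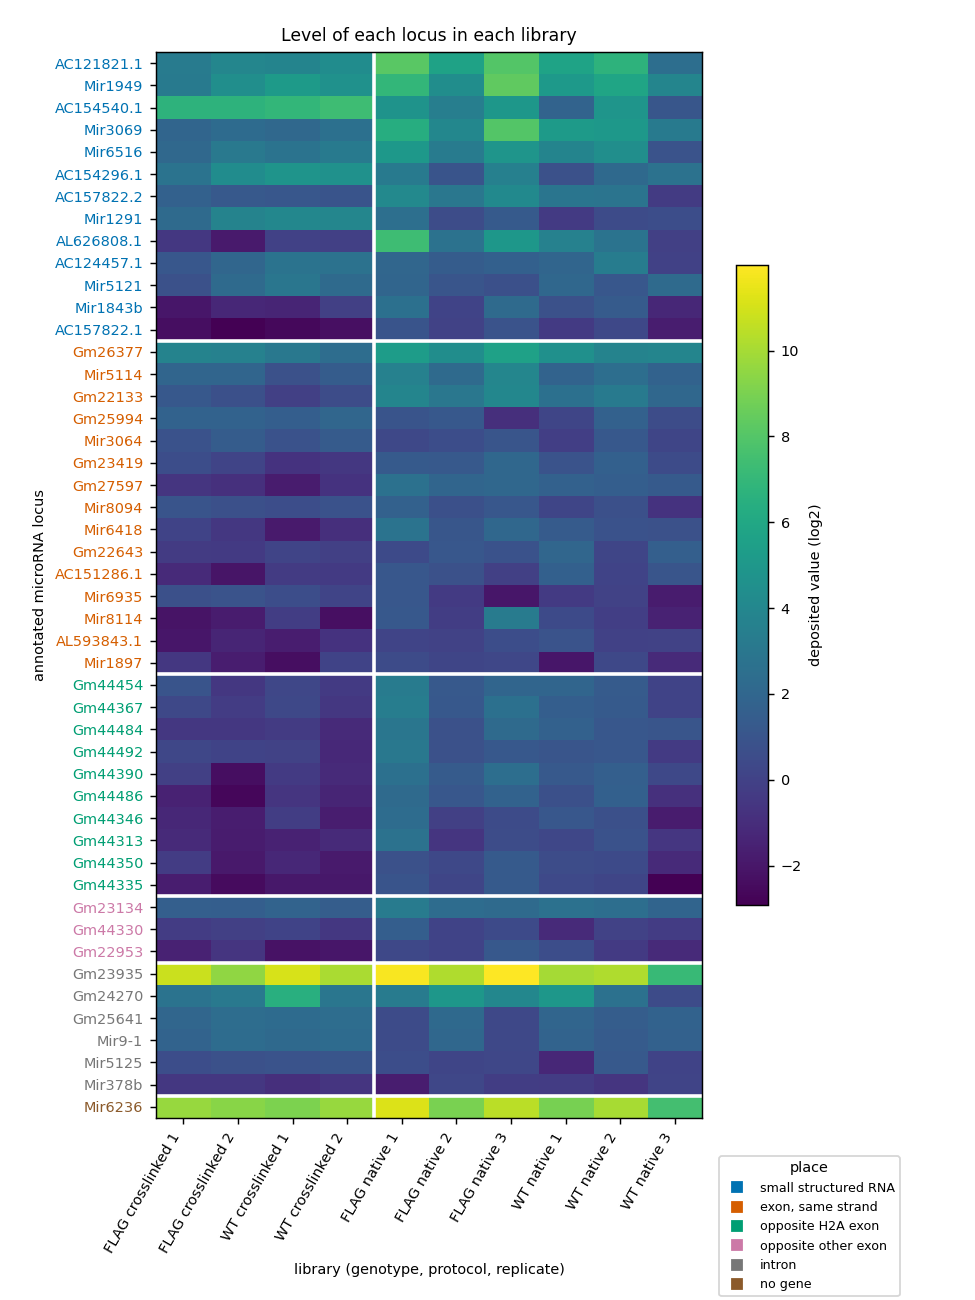
Log2 value of each of the 48 annotated microRNA loci (rows, grouped by place and sorted by mean level) in each of the 10 libraries (columns, crosslinked left of the vertical white line). Gm23935 and Mir6236 are the brightest rows, and most rows opposite H2A exons are darker in the crosslinked than in the native libraries.

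Most loci were low. The mean level over the 10 libraries had a median of 0.751 over the members against 2.84 over all genes, and was below 0 for 12 of the 48. The highest mean values were those of Gm23935 (10.28), Mir6236 (9.49), AC121821.1 (5.22), Mir1949 (5.20) and AC154540.1 (4.86). Per 100 bases of locus, on the log2 scale, the order at the top was Gm23935 (11.09), Mir6236 (9.19), Mir1949 (5.71), AC121821.1 (5.07) and AC154540.1 (4.78).

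Gm23935 (chr16:11144125-11144181, plus strand) lies in an intron of Zc3h7a, on the strand opposite to that gene. Over the 10 libraries its r with Zc3h7a was 0.971, and it stayed within 1.68 of that gene. Its values were 10.79 and 9.51 in the FLAG and 11.06 and 10.12 in the WT crosslinked libraries, and 11.85, 10.22 and 11.99 in the FLAG and 9.96, 10.22 and 7.13 in the WT native libraries. Mir6236 (chr9:110281287-110281409, plus strand) was at 9.69 and 9.35 in the FLAG and 9.08 and 9.67 in the WT crosslinked libraries, and 11.19, 8.98 and 10.46 in the FLAG and 8.95, 10.02 and 7.55 in the WT native libraries. Both were highest in FLAG native replicates 1 and 3 and lowest in WT native replicate 3, and the FLAG and WT values overlapped in both protocols. Their values correlated with r = 0.864 over the 10 libraries, which are shared by both loci. Whether ribosomal RNA or another RNA gave the reads at Gm23935, Mir6236 and Gm24270 was not tested.

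Mir1949 (chr18:35554567-35554636, plus strand) read 3.23 and 4.44 in the FLAG and 5.19 and 4.62 in the WT crosslinked libraries, and 6.98, 4.40 and 8.35 in the FLAG and 5.07, 5.85 and 3.86 in the WT native libraries. AC121821.1 (chr18:35557132-35557242, plus strand), in Snora74a, read 3.26 and 3.94 in the FLAG and 3.81 and 4.36 in the WT crosslinked libraries, and 8.15, 5.66 and 8.03 in the FLAG and 5.75, 6.72 and 2.50 in the WT native libraries. Again the highest values were those of FLAG native replicates 1 and 3. Gm23935 and Mir6236 were above both loci in each library.

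Marker genes and libraries were checked in brief. Of 10 neural stem cell markers 9 were in the matrix, with a median mean value of 7.24, against medians of 4.63 for 2 of 6 neuroblast, 3.09 for 2 of 5 oligodendrocyte, 2.26 for 2 of 6 microglia, -0.18 for 2 of 4 endothelial and 0.41 for 2 of 4 ependymal markers. These are levels of pulled-down RNA, not of the cultures, and single markers of different cell types overlapped. The neural stem cell markers ran from 1.05 to 10.46, while oligodendrocyte markers reached 4.65 and microglia markers 4.18. Gfap, Dcx, Mbp and Aif1 were not among the genes of the matrix. The median over the members was 0.433 and 0.673 in the FLAG crosslinked, 0.108 and 0.310 in the WT crosslinked, 1.11, 1.88 and 2.57 in the FLAG native and 0.405, 1.35 and 1.47 in the WT native libraries, each set sorted from low to high, with the median of protein-coding genes between 3.31 and 3.40. FLAG native replicates 1 and 3 stood apart by having 329 and 178 genes tied at their lowest value, where every other library had at most 3, and 1 member was at that value in each, Mir378b and Mir6935. For 30 of the 48 members WT native replicate 3 was the lowest of the 6 native libraries, and for 36 FLAG native replicate 1 was among the 2 highest.

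The first question was whether crosslinking changed what was recovered at these loci. Across all libraries, with genotype as a covariate, 13 loci were lower and 2 higher in crosslinked than in native pulldown. A gene was called when limma's adjusted p (Benjamini-Hochberg over all genes) was under 0.05 and its log2 fold change over 0.58 in size, and 2.94% of all genes were called lower and 1.17% higher by this rule. The median log2 fold change over the members was -1.38, against 0.064 over all genes, and 34 members were below 0. Whether the members differ from other genes was not tested. Among the 13 called lower were loci in exons of Rpl19, Ftl1, Gnb2, Actg1, Eef1a1 and Kansl1 and loci opposite histone H2A genes, and both that were called higher lie in small nucleolar RNA genes.

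**Figure D2:**
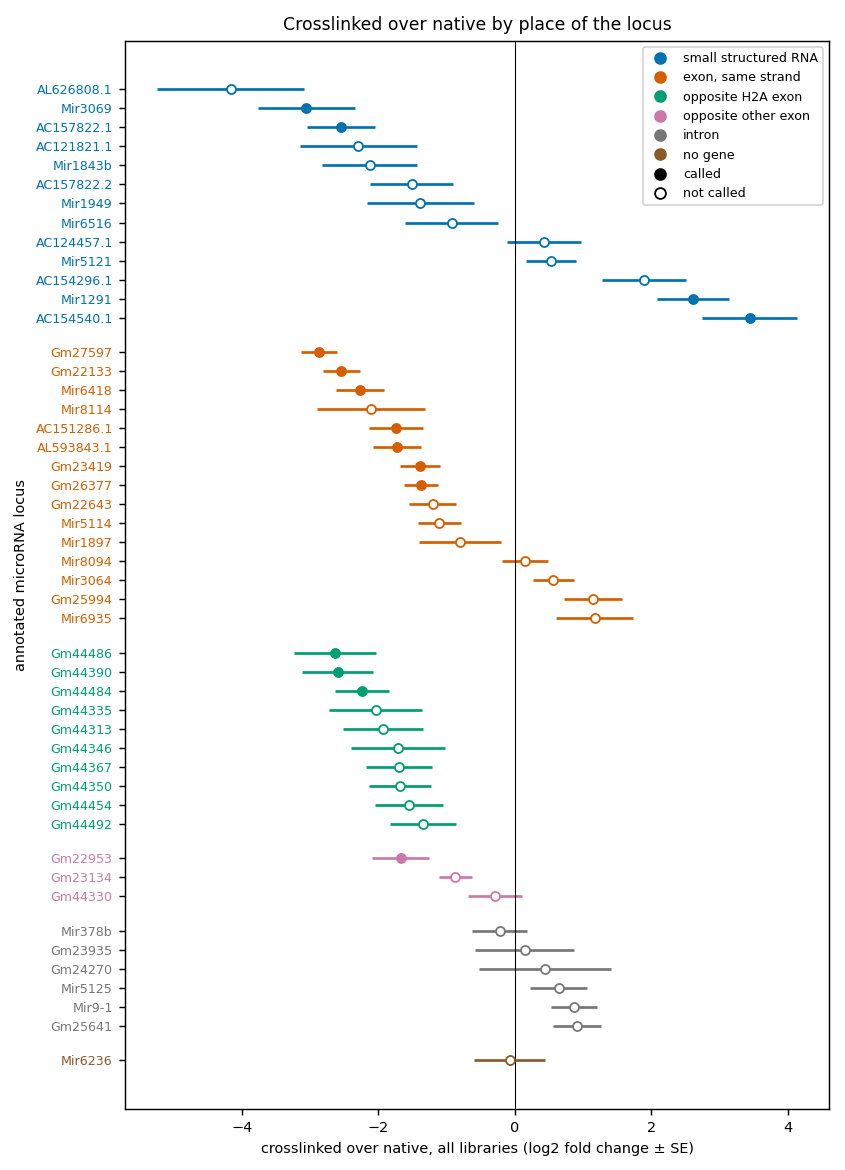
Log2 fold change of crosslinked over native over all 10 libraries, with its SE, for each locus, grouped by place. Filled points are the 13 loci called lower and the 2 called higher, and all 10 loci opposite H2A exons lie below 0.

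Loci in exons on the same strand held 7 of the 13 calls, and 11 of the 15 were below 0 (median -1.38). Gm27597 (chr11:98029413-98029492, plus strand), whose 80 bases all lie in coding sequence of Rpl19, a protein of the large ribosomal subunit, was at -0.60 and -0.86 (FLAG) and -1.80 and -0.75 (WT) with crosslinking against 2.64, 1.96 and 2.04 (FLAG) and 1.72, 1.52 and 1.30 (WT) in native conditions. Every crosslinked value was below every native value (log2 fold change -2.87 ± 0.26 (SE), adjusted p = 0.000836). Rpl19 itself had a log2 fold change of -1.39 (adjusted p = 0.00257), with values of 2.62 and 2.39 (FLAG) and 2.31 and 2.36 (WT) with crosslinking against 4.52, 3.64 and 3.94 (FLAG) and 3.86, 3.52 and 3.37 (WT) in native conditions. The locus has 14 copies in the genome.

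Gm22133 (chr7:45458089-45458197, minus strand) overlaps the last coding bases and the 3′ untranslated region of Ftl1, the ferritin light chain. It had 1.18 and 0.74 (FLAG) and -0.12 and 0.53 (WT) with crosslinking against 3.87, 3.02 and 4.01 (FLAG) and 2.59, 3.19 and 2.08 (WT) in native conditions. Its crosslinked values did not reach the native ones in either genotype (log2 fold change -2.54 ± 0.28 (SE), adjusted p = 0.00109). Ftl1 fell by 1.94 on the log2 scale (adjusted p = 0.000918).

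Mir6418 (chr5:137529480-137529594, minus strand) spans the edge of an exon of Gnb2, a G protein beta subunit, with 30 of its 115 bases in coding sequence. Values were 0.10 and -0.47 (FLAG) and -1.86 and -0.88 (WT) with crosslinking against 2.78, 1.09 and 2.06 (FLAG) and 1.37, 0.86 and 0.77 (WT) in native conditions. Both genotypes were separated without overlap (log2 fold change -2.26 ± 0.35 (SE), adjusted p = 0.00573), and Gnb2 was called in the same direction at -1.14 (adjusted p = 0.0255).

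Gm26377 (chr9:78478528-78478635, minus strand) lies in the 3′ untranslated region of Eef1a1, the elongation factor that brings aminoacyl-tRNA to the ribosome. Its values of 3.73 and 3.64 (FLAG) and 3.05 and 2.41 (WT) with crosslinking against 5.30, 4.39 and 5.61 (FLAG) and 4.56, 3.78 and 3.87 (WT) in native conditions did not overlap between the protocols in either genotype (log2 fold change -1.38 ± 0.25 (SE), adjusted p = 0.0132). Eef1a1 was also called, at -1.41 (adjusted p = 0.0277).

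The cytoplasmic actin gene Actg1 holds Gm23419, which was called, and Mir6935, which was not. Gm23419 (chr11:120346736-120346819, minus strand), in coding sequence, was at 0.62 and 0.13 (FLAG) and -0.74 and -0.47 (WT) with crosslinking against 1.32, 1.22 and 2.04 (FLAG) and 0.90, 1.69 and 0.52 (WT) in native conditions (log2 fold change -1.40 ± 0.29 (SE), adjusted p = 0.0241). Mir6935 (chr11:120347350-120347413, minus strand), in an exon of a transcript of Actg1 that is not annotated as coding, was at 0.72 and 0.91 (FLAG) and 0.63 and 0.15 (WT) with crosslinking against 1.11, -0.40 and -1.99 (FLAG) and -0.38, 0.028 and -1.78 (WT) in native conditions (log2 fold change 1.17 ± 0.56 (SE), adjusted p = 0.276). Gm23419 was lower with crosslinking in every comparison of libraries within a genotype, whereas Mir6935 was higher in all WT libraries and mixed in FLAG. Actg1 had -0.69 (adjusted p = 0.108), and the difference between the loci was not tested.

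AL593843.1 (chr11:104425156-104425300, minus strand), across the start of the coding sequence and the 5′ untranslated region of Kansl1, a subunit of a histone acetyltransferase complex, was at -1.99 and -1.35 (FLAG) and -1.74 and -0.75 (WT) with crosslinking against 0.15, 0.012 and 0.59 (FLAG) and 0.87, -0.014 and 0.012 (WT) in native conditions (log2 fold change -1.73 ± 0.35 (SE), adjusted p = 0.0198). Kansl1 was not called, at 0.16 (adjusted p = 0.40). AC151286.1, in an exon of the noncoding Gm10308, was at -1.16 and -2.04 (FLAG) and -0.34 and -0.38 (WT) with crosslinking against 1.11, 0.78 and -0.067 (FLAG) and 1.66, 0.080 and 0.99 (WT) in native conditions (log2 fold change -1.74 ± 0.40 (SE), adjusted p = 0.0358). At both loci the crosslinked values lay below all native values of the same genotype.

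Of the other loci in exons, Mir5114 and Gm22643 were separated the same way without a call (-1.11 ± 0.32 (SE) and -1.21 ± 0.34 (SE)). The 4 loci above 0 were Mir6935, Mir8094 and the pair in exons of Ddx5, an RNA helicase that also works with DROSHA, Gm25994 and Mir3064. Gm25994 (chr11:106783171-106783271, minus strand) was at 1.75 and 1.75 (FLAG) and 1.56 and 2.00 (WT) with crosslinking against 0.96, 1.21 and -0.88 (FLAG) and 0.18, 1.70 and 0.55 (WT) in native conditions (log2 fold change 1.14 ± 0.43 (SE), adjusted p = 0.162). It was above the native values in FLAG only.

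The 10 loci opposite histone H2A genes were all below 0, from -2.64 to -1.34 with a median of -1.82, and 3 of them were called. These genes encode a core histone of the nucleosome, and the replication-dependent ones end in a stem-loop in place of a poly(A) tail. Since the loci share sequence, up to whole identity (the 138 bases of Gm44350, Gm44367, Gm44484 and Gm44486 are the same), they are not independent observations. Gm44486 (chr13:22042545-22042682, plus strand, opposite Hist1h2ag) was at -1.46 and -2.66 (FLAG) and -0.61 and -1.37 (WT) with crosslinking against 2.24, 1.12 and 1.80 (FLAG) and 0.73, 1.67 and -0.86 (WT) in native conditions (log2 fold change -2.64 ± 0.60 (SE), adjusted p = 0.0343). Gm44390 (chr13:22035164-22035307, plus strand, opposite Hist1h2ah) was at -0.093 and -2.38 (FLAG) and -0.38 and -1.12 (WT) with crosslinking against 2.58, 1.38 and 2.50 (FLAG) and 1.23, 1.63 and 0.33 (WT) in native conditions (log2 fold change -2.60 ± 0.52 (SE), adjusted p = 0.0201). Gm44484 (chr13:23751378-23751515, minus strand, opposite Hist1h2ab) was at -0.47 and -0.49 (FLAG) and -0.34 and -1.16 (WT) with crosslinking against 2.97, 0.78 and 2.21 (FLAG) and 1.69, 1.11 and 1.01 (WT) in native conditions (log2 fold change -2.24 ± 0.40 (SE), adjusted p = 0.0110). In FLAG all 3 loci were separated by protocol, and in WT only Gm44486 overlapped, through WT native replicate 3.

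Of the histone genes opposite these loci, Hist1h2ah (-2.45, adjusted p = 0.0316) and Hist1h2ab (-1.87, adjusted p = 0.0190) were called lower, and Hist1h2ag had -2.35 (adjusted p = 0.0570). The strand setting is not given, so a locus and its histone gene may hold the same reads. Among the 3 loci opposite exons of other genes, Gm22953 (chr2:121450670-121450770, minus strand), opposite Serf2, was called: it was at -1.46 and -0.58 (FLAG) and -2.20 and -1.99 (WT) with crosslinking against 0.34, 0.059 and 1.19 (FLAG) and 0.62, -0.38 and -1.12 (WT) in native conditions (log2 fold change -1.67 ± 0.42 (SE), adjusted p = 0.0489). Gm22953 kept this call in only 2 of the 10 fits that left out 1 library. Serf2 had -0.19 (adjusted p = 0.603). Gm23134, opposite the imprinted neuronatin gene Nnat, was at -0.87 ± 0.25 (SE) and Gm44330, opposite Adgrl1, at -0.29 ± 0.40 (SE), neither called.

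Of the loci in small structured RNA genes 2 were called lower and 2 higher, with fold changes from -4.17 to 3.44. Mir1291 (chr15:98519762-98519878, minus strand) overlaps the H/ACA small nucleolar RNA Snora34, of a class that guides pseudouridylation. It was at 2.22 and 3.75 (FLAG) and 3.97 and 3.95 (WT) with crosslinking against 2.56, 0.55 and 1.30 (FLAG) and -0.38, 0.51 and 0.62 (WT) in native conditions (log2 fold change 2.61 ± 0.53 (SE), adjusted p = 0.0206). AC154540.1 (chr16:23110753-23110858, plus strand) lies over Snora81 in the translation factor gene Eif4a2 and was at 6.69 and 6.75 (FLAG) and 6.93 and 7.34 (WT) with crosslinking against 4.76, 3.45 and 4.96 (FLAG) and 1.85, 4.84 and 1.07 (WT) in native conditions (log2 fold change 3.44 ± 0.70 (SE), adjusted p = 0.0207). Every crosslinked value of AC154540.1 was above every native value, and Mir1291 overlapped between the protocols only through FLAG crosslinked replicate 1. With the replicate number as a block neither was called.

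Snora34 (2.59, adjusted p = 0.0213) and Snora81 (3.42, adjusted p = 0.0200) had the same changes. AC154296.1 (chr9:15314842-15314908, plus strand), over the small nucleolar RNA Gm25791 in Taf1d, was next highest at 2.78 and 4.34 (FLAG) and 4.82 and 4.63 (WT) with crosslinking against 3.20, 0.97 and 3.60 (FLAG) and 0.79, 2.20 and 2.73 (WT) in native conditions (log2 fold change 1.90 ± 0.61 (SE), adjusted p = 0.111), and it was not called. All 131 small nucleolar RNA genes of the matrix had a median of 0.888 in this comparison, with 22 called higher and 6 lower.

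In the other direction, Mir3069 (chr12:105031077-105031141, minus strand), inside the small Cajal body RNA Scarna13, was at 1.97 and 2.27 (FLAG) and 2.12 and 2.57 (WT) with crosslinking against 6.36, 3.99 and 7.99 (FLAG) and 5.19, 5.02 and 3.18 (WT) in native conditions (log2 fold change -3.06 ± 0.72 (SE), adjusted p = 0.0384), and Scarna13 had -2.44 (adjusted p = 0.110). AC157822.1 (chr12:69361179-69361258, minus strand), in the 7SL RNA gene Rn7s2, whose RNA is the scaffold of the signal recognition particle, was at -2.37 and -2.87 (FLAG) and -2.60 and -2.30 (WT) with crosslinking against 0.96, 0.012 and 0.90 (FLAG) and -0.41, 0.33 and -1.71 (WT) in native conditions (log2 fold change -2.55 ± 0.50 (SE), adjusted p = 0.0182). Both were lower with crosslinking in every library pair of a genotype. AL626808.1, in the 5S ribosomal RNA gene, had the lowest fold change of all members and was not called, with values of -0.47 and -1.81 (FLAG) and -0.050 and -0.083 (WT) with crosslinking against 7.39, 2.71 and 4.98 (FLAG) and 3.64, 2.74 and -0.071 (WT) in native conditions (log2 fold change -4.17 ± 1.07 (SE), adjusted p = 0.0556). Its native values were spread from WT replicate 3, the lowest, to FLAG replicate 1, the highest.

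The 6 loci in introns had a median of 0.544 and no call. Mir9-1 (chr3:88215598-88215686, plus strand), in an intron of the long noncoding RNA Gm3764, was at 1.86 and 2.33 (FLAG) and 2.16 and 2.30 (WT) with crosslinking against 0.51, 2.08 and 0.29 (FLAG) and 1.83, 1.34 and 1.72 (WT) in native conditions (log2 fold change 0.87 ± 0.33 (SE), adjusted p = 0.171). Gm25641 (chr3:88215589-88215696, minus strand) was at 2.00 and 2.43 (FLAG) and 2.27 and 2.44 (WT) with crosslinking against 0.51, 2.19 and 0.29 (FLAG) and 1.96, 1.48 and 1.80 (WT) in native conditions (log2 fold change 0.91 ± 0.35 (SE), adjusted p = 0.170). Both were higher with crosslinking in all WT libraries, and in FLAG the crosslinked values overlapped FLAG native replicate 2. Mir6236, with no overlapping gene, had -0.077 ± 0.52 (SE).

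Of the 15 called loci, 8 overlapped a gene that was called in the same direction. Locus and gene may in part hold the same reads, so this count is no separate evidence. Without overlap between the protocols in both genotypes, 17 members were lower with crosslinking (6.92% of all genes were) and 1, AC154540.1, was higher (8.3%). Within the WT cultures alone limma called 0 members (0.0252% of all genes were called higher and 0.0126% lower), with 13 lower and 5 higher at an unadjusted p under 0.05 (4.24% and 3.11%), and a median of -0.904. Without WT native replicate 1 that median was -0.55 and the unadjusted lower count 8 (2.82% of all genes), without WT crosslinked replicate 1 the count was 8 (5.91%), without WT native replicate 3 it was 26 (4.82%) and with the replicate number as a block 27 (6.37%). The unadjusted higher count was 3 without WT crosslinked replicate 1 (3.43%) or WT native replicate 3 (2.28%). 18 members were lower in WT without overlap (12.5% of all genes) and 7 higher (17.3%). Within the FLAG cultures limma also called 0 members (0.0189% higher and 0.0503% lower), with 31 lower and 1 higher unadjusted (5.89% and 2.85%), and a median of -1.53, which was -0.94 without FLAG native replicates 1 and 3. The unadjusted lower count was 14 without those libraries (5.5% of all genes), and 20 without FLAG crosslinked replicate 2 (3.1%) or FLAG native replicate 3 (3.5%). The unadjusted higher count was 2 without FLAG crosslinked replicate 1 (0.579%), 3 without FLAG native replicate 1 (3.72%) or with the block (2.5%) and 4 without FLAG native replicate 2 (12.3%). There 32 members were lower without overlap (13.5%) and 3 higher (17.9%). Over all libraries the unadjusted counts were 28 lower (7.06%) and 6 higher (4.58%). The higher count was 3 without FLAG crosslinked replicate 2 (3.59%) or with the block (3.8%) and 9 without WT native replicate 2 (5.85%).

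Single libraries decided many of these calls. Gm27597, Gm22133 and Mir6418 were called in each of the 10 fits that left out 1 library, and the other 12 loci in 2 to 9 of them. With a pseudocount of 8 Gm27597 missed the size threshold and Mir6418 missed both thresholds, so that neither was called. The number called lower was 5 without FLAG crosslinked replicate 1, 4 without FLAG crosslinked replicate 2, 8 without WT crosslinked replicate 1, 7 without WT crosslinked replicate 2, 5 without WT native replicate 1, 20 without WT native replicate 3, 17 without FLAG native replicate 2 and 6 without FLAG native replicates 1 and 3 together. The number called higher was 0 without FLAG crosslinked replicate 2, WT crosslinked replicate 1, WT crosslinked replicate 2 or WT native replicate 1, 1 without FLAG crosslinked replicate 1 and 4 without FLAG native replicate 2. In these fits 1.33% to 4.83% of all genes were called lower and 0.151% to 1.77% higher. Leaving out FLAG native replicate 2 brought 18 calls lower and 2 higher within the FLAG cultures, where 4.82% and 1.27% of all genes were then called, and leaving out WT native replicate 2 brought 1 higher in WT (0.0692%). With the replicate number as a block, 7 members were called lower and 0 higher over all libraries, 5 and 2 in WT and 22 and 2 in FLAG. Of all genes the blocked fits called 1.69% lower and 0.226% higher over all libraries, 0.723% and 0.17% in WT and 2.38% and 0.352% in FLAG. The WT and FLAG fits had 1 residual degree of freedom each, and in FLAG the prior degrees of freedom were infinite and adjusted p over all genes went down to 2.69e-53. With a pseudocount of 8, which damps low values, 2, Gm22133 and Gm26377, were called lower over all libraries (0.918% of all genes) and the median was -0.20, and with array weights 23 were called lower (6.25% of all genes) and 8 higher (6.5%). The median over the members stayed between -1.55 and -1.26 in all fits without 1 library.

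**Figure D3:**
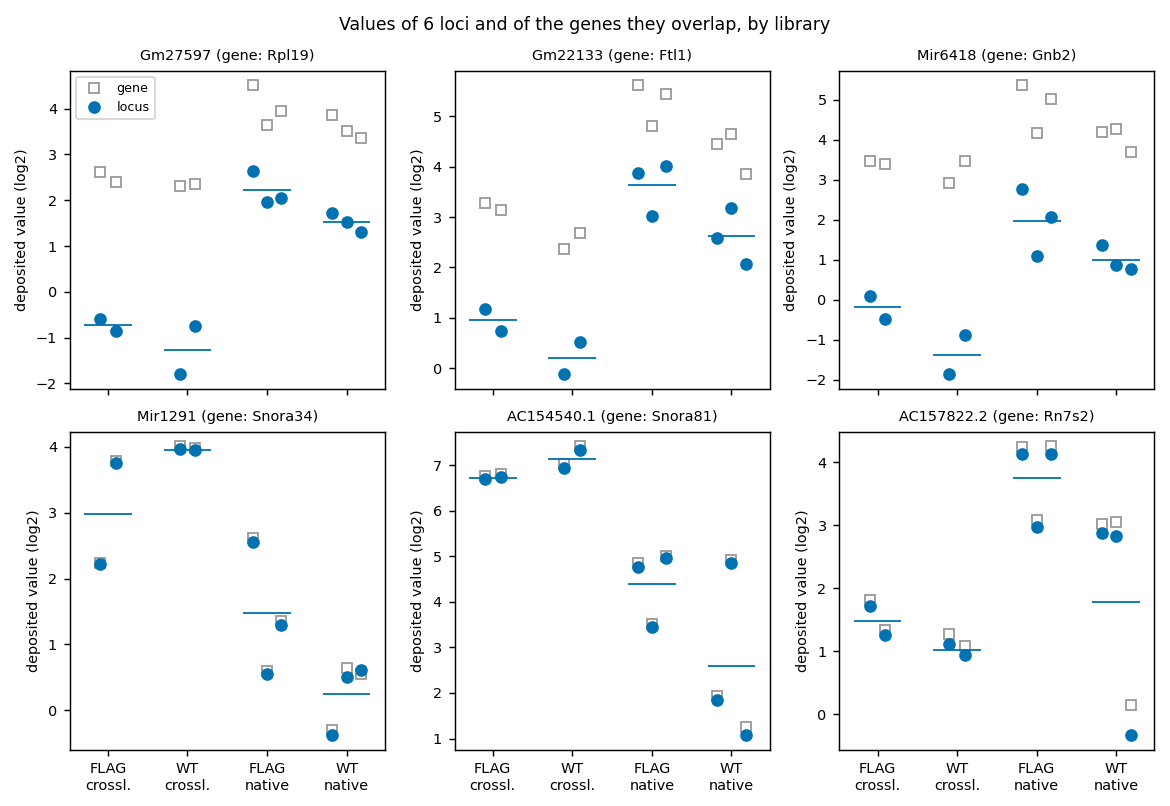
Log2 values of 6 loci (circles, with the group mean as a line) and of the genes they overlap (squares) in each of the 10 libraries. Gm27597, Gm22133 and Mir6418 are lower in all crosslinked than in all native libraries, Mir1291 and AC154540.1 sit on Snora34 and Snora81, and AC157822.2 is higher in FLAG than in WT in both protocols.

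The second question was whether pulldown of tagged MEX3A recovered more at these loci than the untagged background. No member was called in any of the comparisons of FLAG with WT. Within a protocol the fits called no gene of the matrix higher, so this is not particular to these loci. The paper reported genes enriched in both protocols at the same thresholds, with DESeq2. In native conditions limma called 0 members (0% of all genes higher and 0.107% lower), with 9 higher (7.77% of all genes) and 0 lower (7.06%) at an unadjusted p under 0.05, and 39 of 48 fold changes above 0 (47.4%). The median was 1.04 on the log2 scale, against -0.038 over all genes. With crosslinking limma called 0 members (0% in either direction), with 3 higher (2.78%) and 1 lower (0.987%) unadjusted, 20 above 0 (46.3%) and a median of -0.14 against -0.017 over all genes, which was -0.033 without FLAG crosslinked replicate 2. With both protocols in 1 fit and a term for protocol, 0 were called (0.264% of all genes higher and 0.233% lower), with 8 higher (7.24%) and 0 lower (5.28%) unadjusted, 38 above 0 (46.8%) and a median of 0.65 against -0.032.

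**Figure D4:**
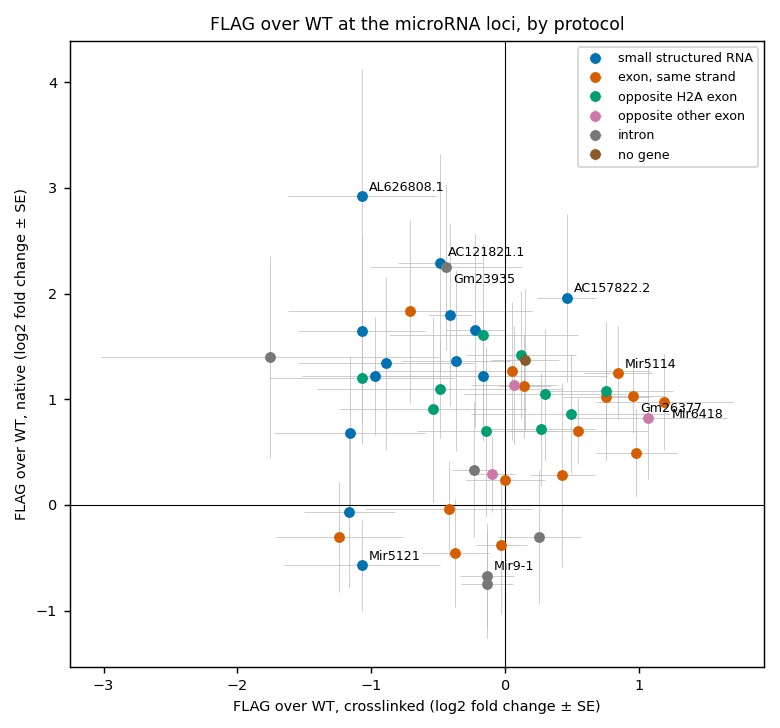
Log2 fold change of FLAG over WT with crosslinking (horizontal) and in native conditions (vertical), each with its SE, for the 48 loci. 39 loci lie above 0 on the vertical axis and 20 on the horizontal one, and no locus was called in either.

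The native excess moved with single libraries. Without FLAG native replicates 1 and 3, the libraries with the most tied low values, the median was 0.273 in native conditions and 0.112 over all libraries, with 0 calls. The unadjusted count of 9 higher in native conditions was 0 without FLAG native replicate 1 (3.89% of all genes) or FLAG native replicate 3 (3.22%), 2 without WT native replicate 3 (3.29%) and 24 without FLAG native replicate 2 (15.7%). Over all libraries it was 5 without FLAG crosslinked replicate 1, FLAG native replicate 1, FLAG native replicate 3 or WT native replicate 3 (5.11% to 7.37%) and 12 without FLAG native replicate 2 (10.3%). With crosslinking the counts were 0 higher and 3 lower without FLAG crosslinked replicate 1 (2.65% and 1.57%), and 1 and 6 without FLAG crosslinked replicate 2 (2.01% and 1.94%). The lower count in native conditions was 2 without FLAG native replicate 2 (16.5%) and 1 without WT native replicate 2 (8%), and over all libraries it was 0 to 3 in the fits without 1 library (3.17% to 9.47%). Without WT native replicate 3 the median was 0.578 in native conditions and 0.306 over all libraries, and without FLAG native replicate 1 it was 0.402 over all libraries. Without FLAG native replicate 2, which left replicates 1 and 3, 13 members were called higher and 1 lower in native conditions and 3 higher over all libraries, but that fit called 9.12% of all genes higher and 10.8% lower in native conditions and 3.25% higher over all libraries. With array weights limma called 9 higher and 2 lower in native conditions (10.4% and 12.1% of all genes) and 7 higher and 6 lower over all libraries (6.95% and 6.06%), and the latter median was 0.035. 4 members were higher in all FLAG than in all WT native libraries (8.62% of all genes were) and 0 lower (10.8%), and with crosslinking 10 were higher (19.1%) and 10 lower (19.9%).

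AC157822.2 (chr12:69361270-69361339, minus strand) was the only locus higher in every FLAG than in every WT library in both protocols, as 4.84% of all genes were, and no member was lower in both (4.47%). It lies whole in the 7SL RNA gene Rn7s2 and had 1.72 and 1.25 in the FLAG and 1.12 and 0.94 in the WT crosslinked libraries, and 4.13, 2.98 and 4.13 in the FLAG and 2.87, 2.82 and -0.34 in the WT native libraries. Its fold change was 0.46 ± 0.22 (SE) with crosslinking, 1.96 ± 0.80 (SE) in native conditions and 1.36 ± 0.60 (SE) over all libraries (adjusted p = 0.229), the highest of the members. Without WT native replicate 3, the lowest library at this locus, it was 0.90 in native conditions and 0.70 over all libraries, below Mir5114 at 0.99. Without FLAG native replicates 1 and 3 the fold change of AC157822.2 was 1.19 in native conditions and 0.77 over all libraries. Rn7s2 had 1.81 and 1.34 against 1.28 and 1.09 with crosslinking and 4.25, 3.09 and 4.25 against 3.02, 3.05 and 0.14 in native conditions, FLAG against WT, and also was separated. AC157822.1, 80 bases in the same gene, was separated in neither protocol (0.67 ± 0.49 (SE) over all libraries).

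Next in the order of FLAG over WT over all libraries came AL626808.1 at 1.32 ± 1.05 (SE), AC121821.1 at 1.18 ± 0.84 (SE), Gm23935 at 1.17 ± 0.71 (SE) and Mir5114 at 1.08 ± 0.31 (SE). For the first 3 of these the protocols disagreed in sign, with native values of 2.92 ± 1.20 (SE), 2.29 ± 1.03 (SE) and 2.25 ± 0.78 (SE) and crosslinked values of -1.07 ± 0.55 (SE), -0.49 ± 0.32 (SE) and -0.44 ± 0.57 (SE). All 3 had their highest values in FLAG native replicates 1 and 3. Without these libraries AL626808.1 was at -0.36, AC121821.1 at 0.0084 and Gm23935 at 0.23 over all libraries, and without WT native replicate 3 they were at 0.51, 0.35 and 0.49.

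Mir5114 (chr19:44303171-44303231, plus strand) lies across the end of the coding sequence of Scd2, a fatty acid desaturase. It read 1.96 and 1.95 in the FLAG and 0.79 and 1.43 in the WT crosslinked libraries, and 3.61, 2.25 and 3.92 in the FLAG and 1.82, 2.47 and 1.76 in the WT native libraries, higher in FLAG in both crosslinked libraries and overlapping in the native ones through FLAG replicate 2. Its fold changes were 0.84 ± 0.25 (SE) with crosslinking and 1.25 ± 0.44 (SE) in native conditions, and adjusted p over all libraries was 0.122. Without FLAG native replicates 1 and 3 it was at 0.24 in native conditions and 0.58 over all libraries. The lowest adjusted p of a member in this comparison was that of Gm26377 in Eef1a1 (1.00 ± 0.25 (SE), adjusted p = 0.0933), and Scd2 and Eef1a1 themselves had 1.39 (adjusted p = 0.138) and 0.98 (adjusted p = 0.137).

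At the other end were Mir5121, AC151286.1, AC124457.1, Gm25641 and Mir9-1. Mir5121 (chr7:45126918-45126991, minus strand), across Snord33 in the ribosomal protein gene Rpl13a, read 0.77 and 2.26 in the FLAG and 2.92 and 2.26 in the WT crosslinked libraries, and 1.93, 1.04 and 0.74 in the FLAG and 2.06, 1.15 and 2.21 in the WT native libraries (-0.77 ± 0.36 (SE), adjusted p = 0.244). AC124457.1 (chr7:109521249-109521368, plus strand), over the small nucleolar RNA Gm24888 in Rpl27a, read 1.11 and 2.03 in the FLAG and 2.77 and 2.69 in the WT crosslinked libraries, and 2.01, 1.41 and 1.64 in the FLAG and 1.96, 3.32 and -0.010 in the WT native libraries (-0.51 ± 0.53 (SE), adjusted p = 0.558). With crosslinking AC124457.1 was lower in both FLAG than in both WT libraries, while Mir5121 overlapped at 2.26. Without WT native replicate 3 AC124457.1 was at -1.05 over all libraries. AC151286.1, whose values stand above, had -0.68 ± 0.39 (SE) (adjusted p = 0.322).

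Mir9-1 had -0.46 ± 0.33 (SE) and Gm25641 -0.51 ± 0.34 (SE) over all libraries, neither called (adjusted p = 0.401 and 0.378). In native conditions FLAG replicates 1 and 3 had the lowest values of all libraries at both loci, while FLAG replicate 2 had the highest native ones. Without FLAG native replicates 1 and 3 both fold changes were above 0, at 0.114 for Mir9-1 and 0.110 for Gm25641.

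By place, the median native fold change of FLAG over WT was 1.37 for the loci in small structured RNA genes, 1.06 opposite H2A exons, 0.82 opposite other exons, 0.70 in exons on the same strand and 0.014 in introns. With crosslinking these medians were -0.89, -0.012, 0.064, 0.14 and -0.19. The 131 small nucleolar RNA genes had medians of 0.422 in native and -0.845 in crosslinked pulldown. Loci and overlapping genes had fold changes of the same sign for 44 of 47 loci in native conditions and 36 of 47 with crosslinking, and their fold changes correlated with r = 0.851 and 0.738 across loci, which are not independent.

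**Figure D5:**
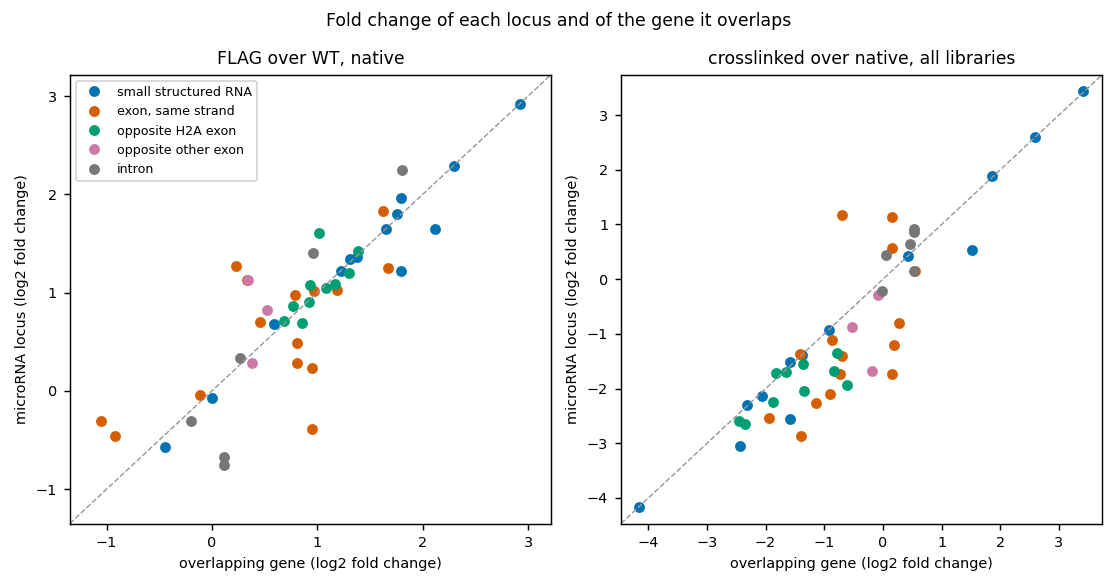
Log2 fold change of each locus (vertical) against that of the gene it overlaps (horizontal) for FLAG over WT in native conditions (left) and for crosslinked over native over all libraries (right), 47 loci, with the line of equal change dashed. Most points in small structured RNA genes lie on or near the line, and several loci in exons lie below it on the right.

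The difference of FLAG over WT between the protocols was tested in 1 fit of the 4 groups, as the native minus the crosslinked log2 fold change. Its median was 0.957 over the members and -0.038 over all genes, with 39 members above 0. It was 0.561 without WT native replicate 3 and 0.425 without FLAG native replicates 1 and 3. limma called 0 members and no gene of the matrix (0%). At an unadjusted p under 0.05 there was 1 member, Mir1291, with the native fold change higher (0.233% of all genes), and 0 lower (0.182%). The higher count was 0 without FLAG native replicate 1 (0.182%) or WT crosslinked replicate 1 (0.837%), 2 without WT crosslinked replicate 2 (0.138%) and 3 without FLAG crosslinked replicate 1 (0.138%) or WT native replicate 1 (0.252%). Both counts were 11 and 2 without FLAG native replicate 2 (6.94% and 8.47% of all genes), where 1 gene of the matrix, no member, was called, 6 and 0 without WT native replicate 2 (1.48% and 0.648%), and 11 and 1 with array weights (6.82% and 7.64%). The smallest adjusted p of a member was 0.970. The largest differences were those of AL626808.1 (3.99), Gm24270 (3.15) and AC121821.1 (2.77).

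The genes that make and use microRNAs were not called in any comparison. Of 32 listed genes 30 were in the matrix, all but Lin28a and Lin28b, which block the maturation of let-7. Their medians ran from -0.012 to 0.0996 over the 7 comparisons. DROSHA's gene Drosha had 6.11 and its partner Dgcr8 5.66 as mean log2 values, Dicer1 5.53 and Ago2 6.53. In FLAG over WT over all libraries these were at -0.22 (Drosha), -0.28 (Dgcr8), -0.0036 (Dicer1) and 0.068 (Ago2) on the log2 scale. Ran, whose product drives export of hairpins by exportin 5, had the highest value at 0.81 (adjusted p = 0.113) and also the lowest in crosslinked over native at -0.85 (adjusted p = 0.0601), and it was singled out after these values were seen.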

How the data were processed

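RNA pulled down with anti-FLAG was measured in 10 libraries, grouped by the GEO labels. Per the methods and the submitters' processing notes, the authors trimmed single reads from a stranded kit with Cutadapt and Trimmomatic, aligned them to GRCm38 with HISAT2 and counted them per gene with featureCounts. The deposited values are log2 values with nearly the same distribution in every library, made by the authors in a step that the sources used here do not fully give: the methods name DESeq2 and the processing notes limma. Strand and multiple-overlap settings are not given, so reads from a gene and its antisense partner cannot be told apart.

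The members and gene lists were chosen with earlier results of these data known. limma 3.58.1 (R 4.3.3; lmFit, eBayes with trend) was fitted over all 15899 genes with Benjamini-Hochberg adjustment, and a gene was called at adjusted p under 0.05 and a log2 fold change over 0.58 in size. The code was tested on simulated data. Values in every library are given for members called, separated by genotype in both protocols, among the 5 highest or lowest in FLAG over WT or crosslinked over native over all libraries, or among the 5 highest by mean level. Loci were placed on GENCODE M21, and copies were counted with BLAST+ 2.17.0. An overlapping gene of 1 locus is not reported here. Deviations from the group means were correlated over genes. Same-numbered crosslinked and native libraries of a genotype had r from 0.154 to 0.388, and same-numbered FLAG and WT libraries of a protocol -0.43 to -0.149. Unlike-numbered pairs reached 0.232 (WT crosslinked replicate 1 with WT native replicate 3) and 0.401 (FLAG native replicate 2 with WT native replicate 3). The 2 crosslinked libraries of a group deviate by equal and opposite amounts, so these r values are no test of pairing. No label says what a number marks. Alternatives were pseudocounts of 1 and 8, a minimum mean value of 0, quantile normalization, centring on protein-coding genes, a replicate block, array weights, robust moderation, 1 fit of the 4 groups and leaving out each library. Leaving out FLAG native replicates 1 and 3 together, averaging loci of 1 gene first and a crossed block were chosen after seeing the data.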

Additional observations from a re-analysis of the deposited data

How the results depend on the processing

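With array weights, FLAG over WT had 9 higher and 2 lower in native conditions and 7 higher and 6 lower over all libraries, and crosslinked over native had 2 higher and 2 lower in WT (0.314% and 0.956% of all genes), 1 and 17 in FLAG (1.7% and 4.79%) and 8 and 23 over all libraries. With a replicate block, crosslinked over native had 2 higher and 5 lower in WT, 2 and 22 in FLAG and 0 and 7 over all libraries, and it called no member in the other comparisons. The crossed block gave 0 calls in FLAG over WT with crosslinking. At an unadjusted p under 0.05 it gave 5 members higher and 4 lower, against 501 and 226 of all genes. In WT, 1 locus was called higher under a pseudocount of 1 (0.0566% of all genes), a pseudocount of 8 (0.0755%), centring and robust moderation (0.044% each). Over all libraries, 2 were called lower under a pseudocount of 8, without Gm27597 and Mir6418, and 6 without FLAG native replicates 1 and 3. Leaving out 1 library gave 0 to 13 higher and 0 to 1 lower for FLAG over WT in native conditions, 0 to 3 higher for FLAG over WT over all libraries, and for crosslinked over native 0 to 1 higher in WT, 0 to 2 higher and 0 to 18 lower in FLAG, and 0 to 4 higher and 4 to 20 lower over all libraries. A pseudocount of 8 gave medians over the members of 0.23 for FLAG over WT in native conditions and 0.11 over all libraries, of -0.12 in WT, -0.32 in FLAG and -0.20 over all libraries for crosslinked over native, and of 0.21 for the difference between the protocols. A pseudocount of 1 gave 0.63 and 0.38 for FLAG over WT in native conditions and over all libraries, -0.54 in WT, -1.04 in FLAG and -0.82 over all libraries for crosslinked over native, and 0.57 for the difference. For FLAG over WT with crosslinking the median was -0.069 with a pseudocount of 1 and -0.015 with a pseudocount of 8. Without FLAG native replicates 1 and 3 the median was 0.27 for FLAG over WT in native conditions and -0.94 for crosslinked over native in FLAG, and array weights gave 0.035 for FLAG over WT over all libraries. In that comparison single loci changed sign: AL626808.1 was at -1.18 with array weights and -0.36 without FLAG native replicates 1 and 3, Gm23935 at -0.89 with array weights, Gm25641 at 0.095 and 0.11, and Mir9-1 at 0.098 and 0.11. Counts at an unadjusted p under 0.05 follow, with the number among all 15899 genes in parentheses. For FLAG over WT a pseudocount of 8 gave 6 higher (486) in native conditions and 1 (240) over all libraries. With crosslinking it gave 0 higher (68) and 0 lower (34). For crosslinked over native it gave 3 higher (87) and 3 lower (158) in WT, and 1 (99) and 10 (378) in FLAG. Over all libraries it gave 3 (82) and 6 (268). For FLAG over WT array weights gave 23 higher (2575) and 3 lower (2724) in native conditions, and 7 (1149) and 8 (1032) over all libraries. For crosslinked over native they gave 6 (1196) and 17 (1160) in WT, and 5 (1939) and 33 (2010) in FLAG. Over all libraries they gave 9 (1166) and 28 (1160). The causes were not tested. Depth is unknown, so the number of reads behind a low locus is unknown too, and the minimum mean value removed the 12 loci whose mean was below 0.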
